A study of Danio rerio with 17 samples.

Results

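The hepatic response to Oligo-Fucoidan (OF) was compared between 2 transgenic zebrafish lines, HBx,src and HBx,src,p53-/+, in obese fish. OF is a low molecular weight form of fucoidan, a sulfated polysaccharide of brown seaweed. The comparison used 12 of the 17 liver arrays, namely 3 arrays of overfed fish (DIO) and 3 of overfed fish given OF (DIO+OF) in each line. The response of a line was the mean log2 signal of its DIO+OF arrays minus that of its DIO arrays, and the quantity examined was the response in HBx,src,p53-/+ minus the response in HBx,src, over all 75212 probe sets of the ZebGene array. The other 5 arrays, from fish on the normal diet (NOR), entered the fit for the estimate of the spread only.

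All fish were female by the study's protocols and 6 months old by the labels. Those of both lines carry the X protein of hepatitis B virus and the src oncogene under the fabp10a promoter, which drives expression in hepatocytes, while HBx,src,p53-/+ fish also have 1 mutant p53 allele. NOR fish were fed about 6.9 mg and DIO fish about 83 mg of Artemia cysts per fish per day. DIO+OF fish were fed as DIO fish and got 300 mg of OF per kg by oral gavage. DIO fish are labelled as mock, and a gavage without OF is not described for them, so that changes with OF cannot be told apart from changes with the gavage. How many fish gave each array is not stated either. The p values below therefore measure the spread between these arrays only.

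Several liver programmes come up repeatedly below. Hepatocytes make cholesterol from acetyl-CoA through mevalonate, squalene and lanosterol, and the genes of these enzymes are switched on together by the sterol sensing factor SREBP2 when sterols in the endoplasmic reticulum (ER) are low. Secreted plasma proteins and lipoproteins are folded in the ER and carried to the Golgi in coated vesicles, and the unfolded protein response raises the ER chaperones when the load of unfolded protein is high. The circadian clock of zebrafish liver runs in part on light and feeding, with the Rev-erb, period and cryptochrome genes as its repressors.

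All HBx,src arrays were in batch 1 and all HBx,src,p53-/+ arrays in batch 2, so that an effect of the line cannot be told apart from one of the batch. Array medians (log2) were 2.095 to 2.212 in HBx,src and 2.552 to 2.684 in HBx,src,p53-/+, and interquartile ranges were 1.798 to 2.028 and 2.888 to 3.336. Levels are therefore described within a line only. Responses are on the scale of their own line too, so a larger response in HBx,src,p53-/+ cannot be told apart from its wider scale. A difference between the 2 responses is a difference between these 2 sets of fish and arrays, and neither p53 nor the batch can be credited with it. One array stood apart, replicate 3 of DIO+OF in HBx,src,p53-/+. The log2 signal there of vtg2, a vitellogenin (egg yolk precursor), was 2.76, where the remaining arrays of that line gave 13.86 to 14.03. That of esr1, the estrogen receptor that drives vitellogenin in the female liver, was 5.89 there, and 10.35 and 10.81 in the other 2 DIO+OF arrays of the line. On this array 169 genes were more than 2 log2 units above all remaining arrays of the line, and 50 were more than 2 below. Whether it came from female fish, as the protocols state, was not tested. The main counts are given with and without this array, and other values include it unless stated. Of the 80 named genes with a called difference, 12 were called without it.

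The 2 lines responded to OF in different ways. The difference was called for 583 probe sets (limma, Benjamini-Hochberg adjusted p under 0.05 over all probe sets), which is 0.775% of those tested. Of these, 252 had a higher response in HBx,src,p53-/+ and 331 a lower one. At the cutoffs named in the methods of the study (a log2 difference of at least 1 and an unadjusted p under 0.05), 6839 probe sets passed, or 9.09%. With 1 probe set per gene, 271 of 20908 genes (1.30%) were called, 137 with a lower response in HBx,src,p53-/+ (0.655% of all genes) and 134 with a higher one (0.641%). Without the array that lacked vitellogenin, 103 probe sets and 37 genes were called. The count of probe sets depended on single arrays. It was 64, 146, 142 and 85 without DIO replicates 2 and 3 and DIO+OF replicates 2 and 3 of HBx,src, 388 without NOR replicate 1 of that line, and 102 and 104 without DIO replicate 3 and DIO+OF replicate 2 of HBx,src,p53-/+. Without DIO+OF replicate 1 of HBx,src it was 1645.

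Most genes called for the difference had moved in opposite directions. A gene was counted as moving oppositely if its difference was called and its responses in the 2 lines had opposite signs, each with an unadjusted p under 0.05, and this held for 189 genes. Without the array that lacked vitellogenin 30 genes moved oppositely, 29 of them among the 189, and leaving out other single arrays gave 20 (without DIO replicate 2 of HBx,src) to 490 (without DIO+OF replicate 1 of HBx,src). Of the 189, 108 (0.517% of all genes) were higher with OF in HBx,src and lower with OF in HBx,src,p53-/+, and 81 (0.387%) were the reverse. Another 81 genes had a called difference and an unadjusted p under 0.05 in 1 line only, and 1 gene, tspeara, was higher in both lines but by more in HBx,src,p53-/+. A gene was counted as moving alike if the mean of the 2 responses was called and both had the same sign, each with an unadjusted p under 0.05. This held for 174 genes, 154 of them higher with OF (0.737%) and 20 lower (0.0957%). In every fit that left out 1 array, 17 of the 189 and 71 of the 174 were called, and 15 and 54 stayed in their class. A test of the difference by its nature favours genes that move apart and a test of the mean favours genes that move together, so the sizes of the groups cannot be set against each other.

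Over all 20908 genes the responses of the 2 lines were nearly unrelated. Pearson's r across genes was -0.10 and Spearman's rho -0.04. The 2 responses share no array, but genes are not independent replicates, and the correlation is given as a description. Among the 845 genes with an unadjusted p under 0.05 in both lines, the responses were opposite in 467 and in the same direction in 378. The median response was -0.01 in HBx,src and 0.04 in HBx,src,p53-/+ on the log2 scale.

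**Figure D1:**
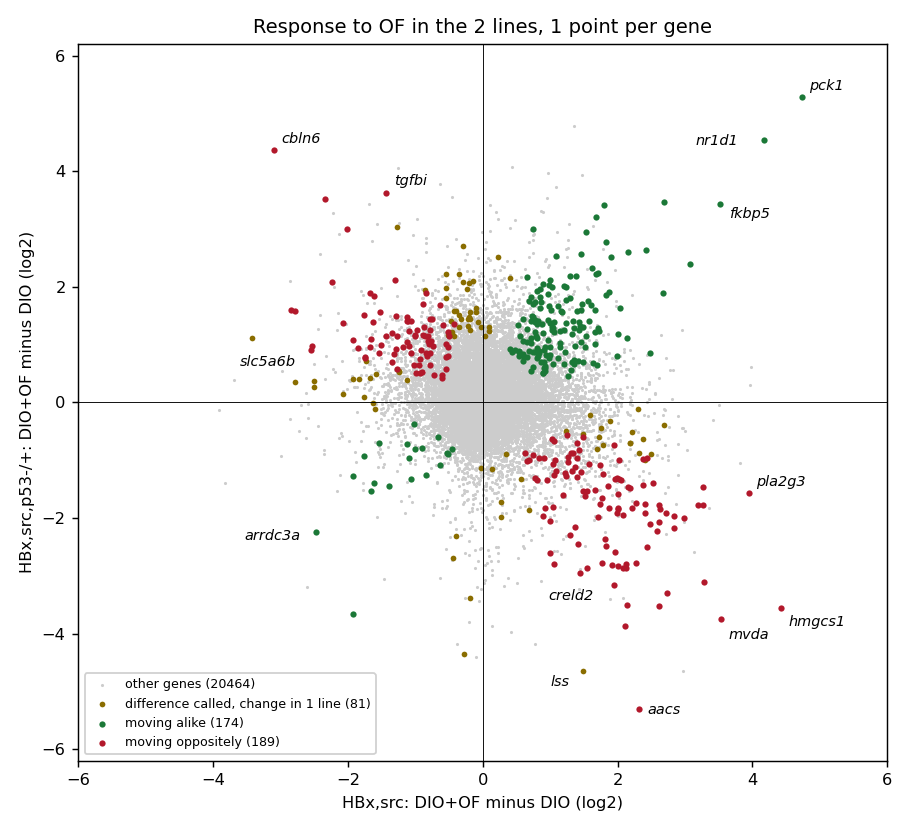
Response to OF (DIO+OF minus DIO, log2) in HBx,src on the x axis and in HBx,src,p53-/+ on the y axis, 1 point per gene for 20908 genes, each response from 3 against 3 arrays. The 189 genes moving oppositely lie to the upper left and lower right, with hmgcs1 (4.43 and -3.56) far to the lower right, and the 174 genes moving alike lie mostly to the upper right, with pck1 (4.74 and 5.28) at the end.

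The cholesterol synthesis list had the largest median difference between the lines of the 33 lists. Of the 25 measured genes of the list, 23 had a higher mean signal with OF in HBx,src and a lower one with OF in HBx,src,p53-/+, and none (0) was the reverse, where over all genes 4685 and 5775 of 20908 were. The median response was 1.96 in HBx,src and -2.59 in HBx,src,p53-/+ on the log2 scale, where the medians over all genes were near 0. The difference was called for 12 of the 25, all with a lower response in HBx,src,p53-/+, and 23 had a lower one at an unadjusted p under 0.05, as 8.10% of all genes did. Within a line, 0 of the 25 passed the adjusted test for OF in HBx,src (18 were higher at an unadjusted p under 0.05) and 7 passed it in HBx,src,p53-/+.

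The largest difference of any gene was that of hmgcs1, the cytosolic HMG-CoA synthase that makes the substrate of HMG-CoA reductase. In HBx,src its log2 signal was 9.05, 6.04 and 7.03 in DIO and 10.18, 12.36 and 12.87 in DIO+OF. In HBx,src,p53-/+ it was 11.24, 10.18 and 11.42 in DIO and 7.75, 8.23 and 6.16 in DIO+OF. The DIO+OF arrays were all above the DIO arrays in the first line and all below them in the second. The response was a 21.5-fold increase in HBx,src and an 11.8-fold decrease in HBx,src,p53-/+, a difference of -7.99 ± 1.27 on the log2 scale (SE, n = 3 arrays per group, limma adjusted p = 0.0211).

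Of 18 enzyme genes set in the order of the pathway, 11 had a called difference and 7 did not. For mvda, the mevalonate diphosphate decarboxylase, the log2 signal in HBx,src was 6.79, 5.08 and 4.77 in DIO and 7.73, 9.05 and 10.50 in DIO+OF. The HBx,src,p53-/+ arrays gave 8.20, 7.83 and 8.90 in DIO and 5.41, 5.23 and 3.05 in DIO+OF, and the difference was -7.29 ± 1.19. For fdft1, the squalene synthase at which the sterol branch begins, the signal in HBx,src was 6.59, 5.86 and 5.96 in DIO and 7.77, 10.04 and 10.44 in DIO+OF. Among HBx,src,p53-/+ arrays it was 8.53, 8.69 and 9.38 in DIO and 5.47, 6.24 and 5.59 in DIO+OF, a difference of -6.38 ± 1.01. The arrays of the 2 groups overlapped in neither line for either gene. In HBx,src replicate 1 of DIO+OF was the lowest of the DIO+OF arrays for hmgcs1, mvda and fdft1. For mvk, the mevalonate kinase, that array was at 2.03, among the DIO arrays (1.96, 2.38 and 1.94), while the other 2 were at 6.60 and 5.51.

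The difference was also called for idi1 (-5.06 ± 0.89), the isopentenyl diphosphate isomerase, and for enzymes that trim the sterol ring and side groups after lanosterol. These were ebp at -5.98 ± 1.13, hsd17b7 at -5.65 ± 1.09, dhcr7, the last reductase before cholesterol, at -4.82, sc5d at -4.56 and nsdhl at -4.02. The gene scap, the escort protein of the SREBP factors, had 1.40 in HBx,src and -0.70 in HBx,src,p53-/+, and its difference was called as well. In the fit without the array that lacked vitellogenin scap was not called (limma adjusted p = 0.09). Other sterol control genes were not called there either, srebf2 at -1.01, insig1 at -1.14 and ldlrb at -0.77 (adjusted p 0.289 to 0.772). In that fit insig1 and ldlrb had 0.61 and 0.74 in HBx,src,p53-/+, and means over the lines of 1.18 and 1.12. For lss, the lanosterol synthase, the change in HBx,src was 1.49 with overlapping arrays, and that in HBx,src,p53-/+ was -4.65. Of the enzymes with no call, sqlea had 2.97 and -4.64 (adjusted p of the difference = 0.0531), and hmgcra, the HMG-CoA reductase, 1.55 and -1.54 (adjusted p = 0.215). The others were pmvk, fdps, cyp51, tm7sf2 and msmo1, with adjusted p between 0.0858 and 0.367.

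**Figure D2:**
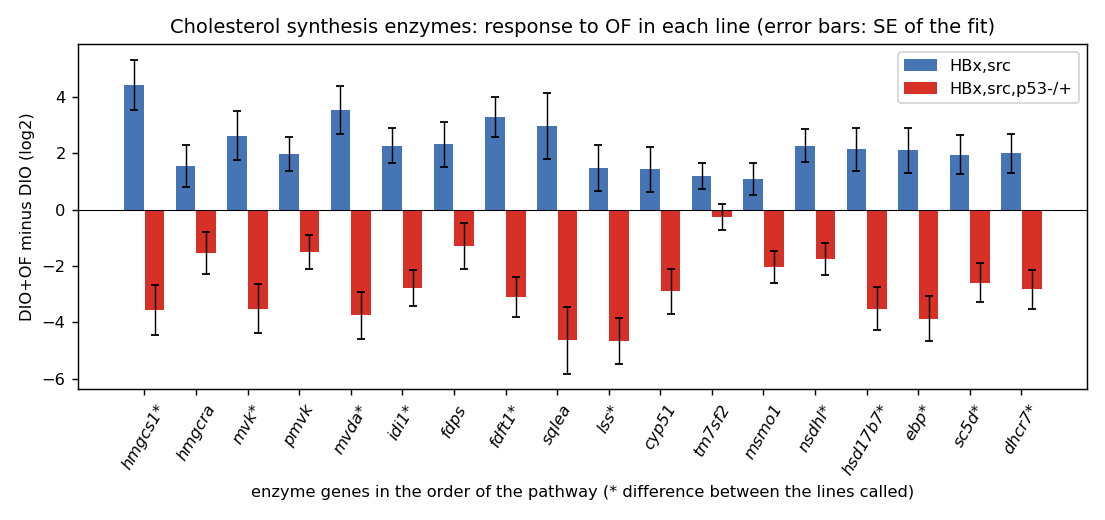
Response to OF (DIO+OF minus DIO, log2) of 18 cholesterol synthesis enzyme genes in the order of the pathway, with blue bars for HBx,src and red bars for HBx,src,p53-/+, standard errors of the fit as error bars (n = 3 arrays per group) and an asterisk where the difference was called. All blue bars point up and all red bars down, from hmgcs1 (4.43 and -3.56) to dhcr7 (2.00 and -2.83), and tm7sf2 has the smallest red bar (-0.27).

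None (0) of the 25 was called without the array that lacked vitellogenin, and 21 had a lower response in HBx,src,p53-/+ at an unadjusted p under 0.05. The median difference was then -3.78 in place of -4.33. The adjusted p of hmgcs1, mvda and fdft1 was 0.0515 each, with differences of -7.38, -6.54 and -6.29. Of the 189 genes moving oppositely, 17 were called in every fit that left out 1 array, and no cholesterol synthesis gene was among them. Those 17 included dnajc25, serp1, srp14, sec24c, sec31a and golgb1, of the ER lists described next.

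Genes of protein folding and import in the ER moved in the same opposite manner. Of 66 measured genes, 53 had a higher mean signal with OF in HBx,src and a lower one in HBx,src,p53-/+, and none (0) was the reverse. The median response was 1.00 in HBx,src and -0.99 in HBx,src,p53-/+. The difference was called for 20, all lower in HBx,src,p53-/+, and 51 were lower at an unadjusted p under 0.05. Over all genes the shares were 0.655% and 8.10%. Leaving out the array that lacked vitellogenin, 4 were called and 48 were lower at an unadjusted p under 0.05.

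For creld2, an ER chaperone induced by the unfolded protein response, the log2 signal in HBx,src was 6.62, 5.15 and 6.17 in DIO and 6.73, 8.61 and 8.40 in DIO+OF. The signal in HBx,src,p53-/+ was 8.40, 7.67 and 8.45 in DIO and 6.00, 4.72 and 4.33 in DIO+OF. Replicate 1 of DIO+OF in HBx,src lay just above the DIO arrays, and the DIO+OF arrays of the other line lay well below theirs. The difference was -5.10 ± 0.77 (adjusted p = 0.0168, and 0.0484 without the array that lacked vitellogenin). For dnajc25, a membrane J-domain protein, the signal in HBx,src was 5.41, 4.28 and 5.41 in DIO and 7.65, 8.12 and 8.28 in DIO+OF. For HBx,src,p53-/+ the values were 7.46, 8.44 and 8.76 in DIO and 7.13, 5.56 and 5.97 in DIO+OF, a difference of -4.99 ± 0.66 (adjusted p = 0.00857). The groups of this gene did not overlap in either line.

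The other members covered the steps from import to quality control. Those of the signal recognition particle and the translocon, which bring nascent proteins into the ER, included srp14 (difference -3.85 ± 0.54) and the translocon associated serp1 (-4.82 ± 0.68). The translocon subunit gene sec61a1b, which is not in the list and was chosen after its values were seen, had -4.47. Among the lumenal chaperones and folding enzymes, manf had -4.94, the BiP cofactor sdf2l1 -4.40, calr3b, a calreticulin, -4.74, and the disulfide isomerase pdia4 -3.84. For hspa5, which codes for the major chaperone BiP, the responses were 2.72 and -2.27, and the adjusted p of the difference was 0.0525. The sensor eif2ak3 (PERK) had responses of 1.79 and -1.24 and sel1l, of ER-associated degradation, 1.49 and -1.54, both with a called difference. Another sensor, atf6, was higher in HBx,src (1.79) and had -0.74 in HBx,src,p53-/+ with overlapping arrays. The factor xbp1 had 1.43 and -0.93, and its difference was not called (adjusted p = 0.184).

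Vesicle transport from the ER to the Golgi gave the same picture. Of 44 genes, 35 had a higher mean signal with OF in HBx,src and a lower one in HBx,src,p53-/+, and 2 were the reverse. The difference was called for 12, all lower in HBx,src,p53-/+, and 33 were lower at an unadjusted p under 0.05. Over all genes the shares were 0.655% and 8.10%. The median responses of the list were 1.12 and -0.77. Without the array that lacked vitellogenin 3 were called, and 31 had a lower response at an unadjusted p under 0.05 in place of 33. For sec24c, which selects cargo in the COPII coat, the log2 signal in HBx,src was 5.34, 5.01 and 4.59 in DIO and 6.82, 7.03 and 7.14 in DIO+OF. In the HBx,src,p53-/+ line it was 7.19, 7.02 and 7.88 in DIO and 6.35, 6.47 and 6.29 in DIO+OF. The arrays of this gene were separate in both lines, and the difference was -3.01 ± 0.38 (adjusted p = 0.00857).

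The outer COPII coat genes sec31a and sec13 had differences of -3.60 ± 0.51 and -2.74. Of the COPI coat, which carries proteins back from the Golgi, arcn1a had -3.93 ± 0.64, copb1 -3.63 and copa -2.65. The tethering protein gene golgb1 had -2.09 ± 0.30 and the cargo receptor gene surf4l -3.66. Of the 108 genes that were higher with OF in HBx,src and lower in HBx,src,p53-/+, 40 were members of the cholesterol, ER folding or ER to Golgi lists, which together hold 135 genes. None (0) of the 81 genes moving the other way was a member. The lists were chosen with earlier results of these data known, so these counts are a description and not a test.

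Some genes of this direction were outside the lists. Among the 8 largest differences with no overlap in either line were those of pmm2 (-6.03 ± 0.98), the phosphomannomutase that supplies mannose for protein glycosylation, and pla2g3 (-5.52 ± 0.90), a secreted phospholipase. The responses of pmm2 were 2.73 and -3.30. For pla2g3 they were 3.95 and -1.57, and its DIO+OF arrays lay on opposite sides of the DIO arrays in the 2 lines. Of the genes named from the other lists, gpam, the acyltransferase of the first step of triglyceride synthesis, had 3.27 and -1.46, atf4a, the factor of the integrated stress response, 0.74 and -0.91, and mdm4, which restrains p53, 1.43 and -0.83. The arrays of gpam overlapped in HBx,src,p53-/+. By its value aacs, the acetoacetyl-CoA synthetase that feeds cytosolic acetoacetate into lipid synthesis, stood out as well with 2.31 and -5.30. Its arrays overlapped in HBx,src, and its difference was not called without the array that lacked vitellogenin (limma adjusted p = 0.0604). Those of pmm2, pla2g3, gpam, atf4a and mdm4 were not called without that array either (limma adjusted p 0.0525 to 0.0797).

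**Figure D3:**
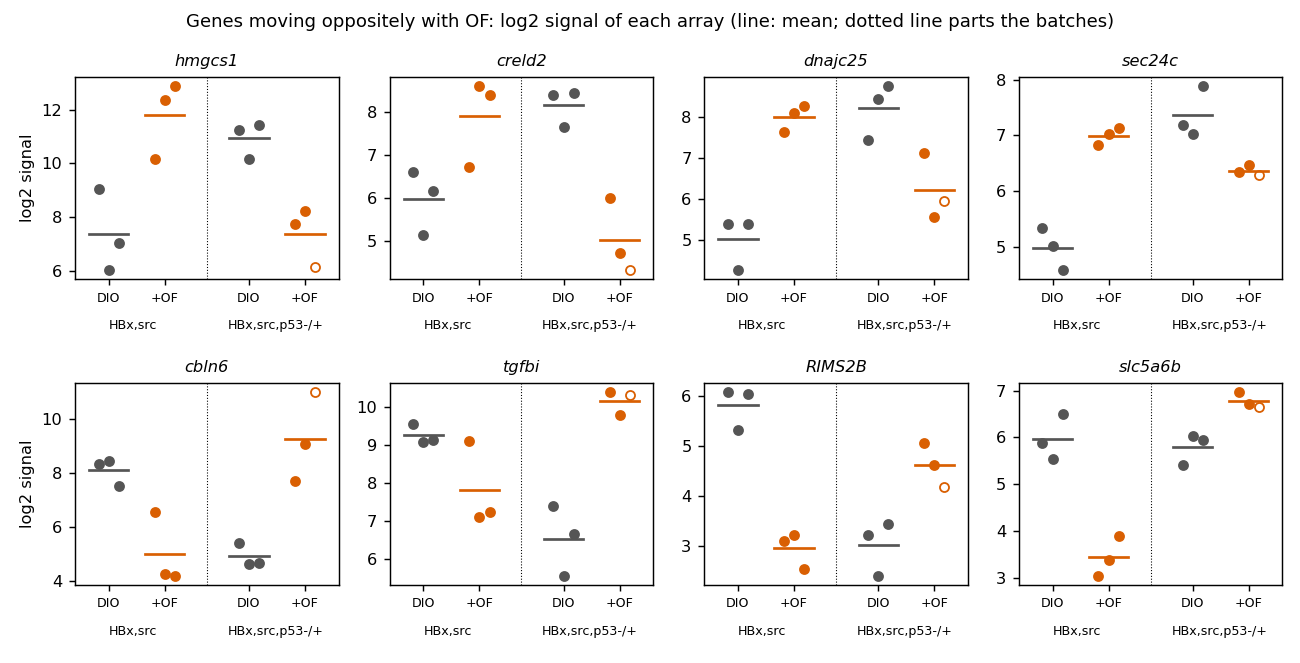
Log2 signal of each array (points) and group means (lines) for 4 genes that were higher with OF in HBx,src and lower in HBx,src,p53-/+ (upper row) and 4 genes that moved the other way (lower row), DIO in grey and DIO+OF in orange, with the DIO+OF array that lacked vitellogenin as an open circle. The dotted line parts the 2 batches, across which levels cannot be compared, and within each line the 2 groups are separate for every gene except tgfbi in HBx,src.

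Of the 81 genes lower with OF in HBx,src and higher in HBx,src,p53-/+, 5 were in any of the lists. The share of all genes that are in any list was not computed, so this count says nothing about these genes. The largest difference was that of cbln6, a cerebellin family gene. In HBx,src its log2 signal was 8.33, 8.44 and 7.50 in DIO and 6.53, 4.26 and 4.18 in DIO+OF. In HBx,src,p53-/+ it was 5.39, 4.62 and 4.66 in DIO and 7.70, 9.07 and 10.98 in DIO+OF. The groups were separate in both lines, the response was an 8.6-fold decrease in the first and a 20.6-fold increase in the second, and the difference was 7.47 ± 1.19 (adjusted p = 0.0211). Without the array that lacked vitellogenin, which had the highest signal, it was 6.60 (adjusted p = 0.0484).

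For slc5a6b, a gene of the sodium dependent vitamin transporters that carry biotin and pantothenate, the signal in HBx,src was 5.89, 5.54 and 6.50 in DIO and 3.04, 3.38 and 3.90 in DIO+OF. The HBx,src,p53-/+ arrays gave 5.42, 6.04 and 5.94 in DIO and 6.97, 6.72 and 6.66 in DIO+OF. This gene had the smallest adjusted p among those named (0.00300, difference 3.52 ± 0.38), and the response in HBx,src was the larger of the 2. For RIMS2B, of the RIM family that acts at sites of exocytosis, the HBx,src signal was 6.07, 5.31 and 6.03 in DIO and 3.10, 3.21 and 2.53 in DIO+OF. Among HBx,src,p53-/+ arrays it was 3.22, 2.40 and 3.44 in DIO and 5.05, 4.62 and 4.17 in DIO+OF. The differences of slc5a6b and RIMS2B (4.44 ± 0.55) were called without the array that lacked vitellogenin too (adjusted p = 0.00927 and 0.0152).

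The others named by the size of their difference were spp2 (5.01 ± 1.07), a secreted phosphoprotein of the liver, nrxn1b (4.37 ± 0.83), a neurexin, BAIAP2L1A (3.47 ± 0.57), which links membranes to actin, cyp46a1.3 (3.46 ± 0.64), of the family of the cholesterol 24-hydroxylase, and tlcd4a (3.45 ± 0.73). From the lists came leap2, which codes for the liver-expressed peptide that opposes ghrelin at its receptor in mammals. It had responses of -2.34 and 3.52, and one of its DIO+OF arrays in HBx,src, at 7.12, lay among the DIO arrays. The matrix protein gene tgfbi had -1.43 and 3.63, pdk4, which restrains the entry of pyruvate into the citric acid cycle, -1.66 and 1.09, and cyp27a1.4, of the sterol 27-hydroxylase family, -0.55 and 1.01. The apolipoprotein gene apobb.1, among the brightest liver genes, had -0.60 and 0.42. In HBx,src it was 12.57, 12.69 and 12.63 in DIO and 12.08, 12.04 and 11.96 in DIO+OF, and in HBx,src,p53-/+ it was 12.57, 12.32 and 12.56 in DIO and 12.73, 12.80 and 13.19 in DIO+OF. Its difference of 1.02 ± 0.21 was the smallest among the 189 genes. The differences of the genes named in this paragraph were not called without the array that lacked vitellogenin (limma adjusted p 0.0514 to 0.115).

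Some genes of this direction were picked with their values in view. The ABC transporter genes abcg8, of biliary sterol export, and abcg2a had differences of 2.20 and 2.74. The arrays of abcg8 overlapped in HBx,src, and its partner abcg5 was in none of the classes (-0.42 and 1.17). The gene cyp27a1.2 had -1.76 and 1.52. For masp1, a protease of the lectin pathway of complement, the responses were -0.88 and 1.71, and for dll4, a Notch ligand of endothelium, -1.07 and 1.41. Without the array that lacked vitellogenin, dll4 kept its called difference (limma adjusted p = 0.0453). The differences of abcg8, abcg2a, cyp27a1.2 and masp1 were not called there (limma adjusted p 0.0673 to 0.101).

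The lists of secreted and metabolic liver genes leaned the same way with few calls. Of 46 genes of the acute phase and complement, 35 had a lower mean signal with OF in HBx,src and a higher one in HBx,src,p53-/+, and 25 had a higher response in HBx,src,p53-/+ at an unadjusted p under 0.05, as 10.1% of all genes did, but only leap2 was called. The median responses were -0.33 and 0.62. For fatty acid oxidation they were -0.18 and 0.79, with 0 of 31 called and 13 higher in HBx,src,p53-/+ at an unadjusted p under 0.05. In that list ehhadh, of the peroxisomal pathway, had -0.87 and 0.99 (adjusted p of the difference = 0.057). The cytochrome P450 and xenobiotic list had medians of -0.13 and 0.63, with 1 of 71 called, and glucose metabolism -0.07 and 0.65, with 2 of 30. Without the array that lacked vitellogenin, 17 acute phase and complement genes and 9 of fatty acid oxidation had a higher response at an unadjusted p under 0.05. So had 1629 of all 20908 genes. No gene of the acute phase, fatty acid oxidation, P450 or glucose lists was called there. Proteasome genes leaned towards the cholesterol and ER genes, with medians of 0.35 and -0.39 and 0 called. Of them, 15 of 41 were lower in HBx,src,p53-/+ at an unadjusted p under 0.05, as were 8.10% of all genes. Over all genes the difference was called for 1.30%. For DNA replication and mitosis the medians were -0.01 and -0.30, with 0 of 60 called, and for the cytosolic ribosomal proteins 0.01 and -0.32, with 0 of 68.

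**Figure D4:**
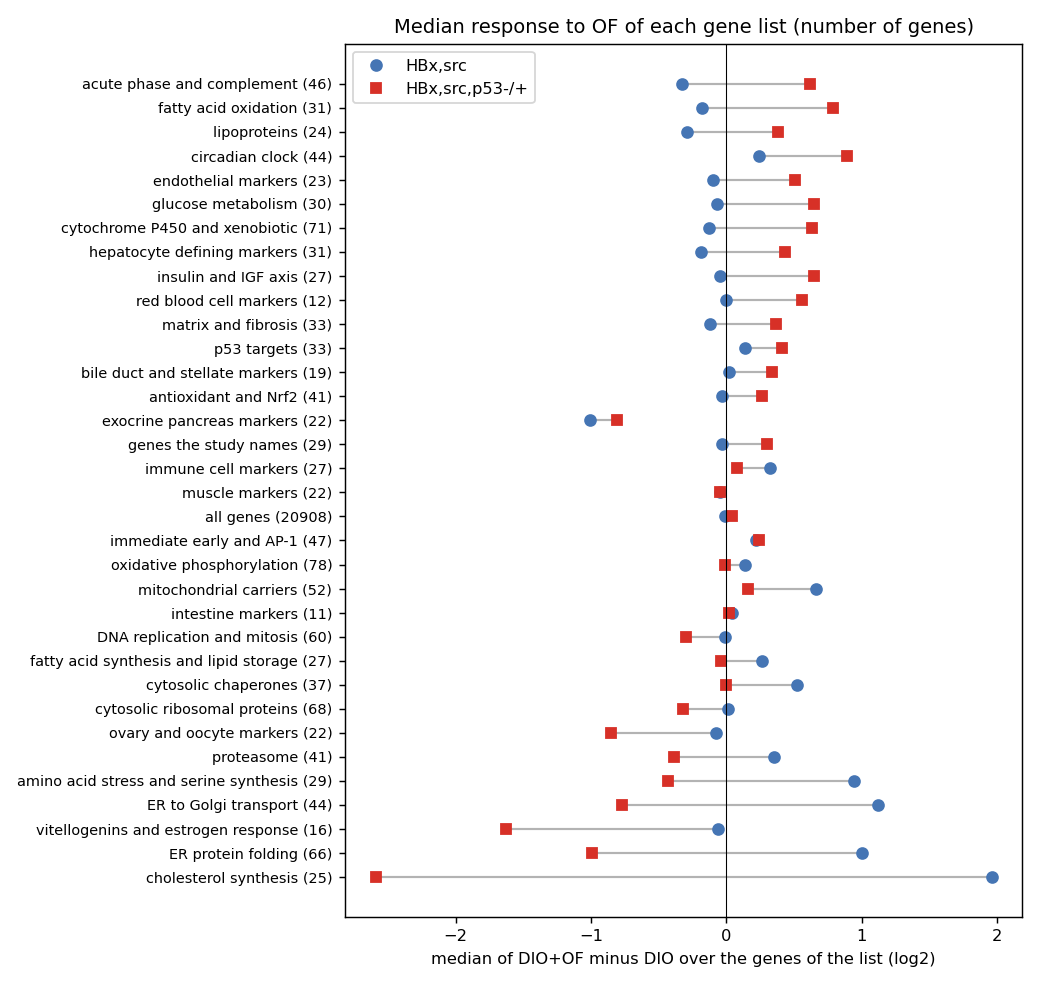
Median response to OF (DIO+OF minus DIO, log2) over the genes of each list and over all genes, with circles for HBx,src and squares for HBx,src,p53-/+, the number of genes in brackets and the lists ordered by the median difference between the lines. Cholesterol synthesis (1.96 and -2.59), ER protein folding (1.00 and -0.99) and ER to Golgi transport (1.12 and -0.77) have medians of opposite sign, while exocrine pancreas markers (-1.01 and -0.81) lie to the left in both lines. Without the array that lacked vitellogenin, the median of the pancreas markers in HBx,src,p53-/+ was 0.01.

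Against this stood genes that moved alike in both lines, most of them upward. The largest mean response was that of pck1, the phosphoenolpyruvate carboxykinase that controls gluconeogenesis. In HBx,src its log2 signal was 3.05, 3.85 and 3.72 in DIO and 6.51, 8.13 and 10.18 in DIO+OF. The signal in HBx,src,p53-/+ was 4.85, 2.56 and 4.92 in DIO and 7.15, 9.61 and 11.40 in DIO+OF. The DIO+OF arrays were all above the DIO arrays in both lines but spread widely. The increase was 26.6-fold and 38.8-fold, a mean of 5.01 on the log2 scale (adjusted p = 0.0119), and the difference between the lines was 0.54 ± 1.55, too wide to tell whether the increases were of one size.

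The clock list held 10 of the genes that moved alike, of 44 measured, where 174 of all 20908 genes moved alike. For nr1d1, which codes for the clock repressor Rev-erb alpha, the signal in HBx,src was 2.96, 5.02 and 4.29 in DIO and 8.12, 8.38 and 8.26 in DIO+OF. For HBx,src,p53-/+ the values were 4.40, 5.73 and 5.51 in DIO and 9.41, 9.88 and 9.96 in DIO+OF. The rise was 18-fold and 23.2-fold, with a mean of 4.35 (adjusted p = 5.97e-05) and a difference of 0.37 ± 0.62. Both groups of DIO+OF arrays were narrow and far from the DIO arrays.

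In the same direction were the repressor gene nr1d2a (1.80 and 3.42), the period genes per1a (1.83 and 2.78) and per1b (1.45 and 2.56), cry2 (1.38 and 2.19), ciartb (2.15 and 2.60) and the output factor gene dbpb (2.42 and 2.63). The mean response was called for each of them. The cryptochrome genes cry3a and cry3b fell in both lines, by -1.76 and -0.92 and by -1.62 and -1.40. A further entry, CRY3, had a lower mean signal with OF in HBx,src and a higher one in HBx,src,p53-/+ (response 0.76). It was in none of the classes. For cry3a the signal in HBx,src was 10.19, 9.94 and 10.01 in DIO and 8.36, 8.10 and 8.42 in DIO+OF. In the HBx,src,p53-/+ line it was 10.65, 10.08 and 10.13 in DIO and 9.17, 9.31 and 9.63 in DIO+OF. None (0) of the 44 clock genes moved oppositely, and 1, cry1a, had a called difference, with -0.10 and 1.56. Over all 20908 genes 189 moved oppositely and 271 had a called difference, so counts this low say little about the clock list. The hour of sampling is not given in the sources used here, and its part in these values was not tested.

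Some genes known in mammals to respond to glucocorticoids rose in both lines and others did not, and apart from fkbp5 they were picked with their values in view. Those that rose were fkbp5, a co-chaperone of the glucocorticoid receptor, with 3.52 and 3.44, the kinase gene sgk1 with 1.16 and 1.58, and the factor gene klf13 with 1.90 and 2.51. For tsc22d3 the response was 2.19 in HBx,src,p53-/+ and near 0 in HBx,src, and its mean was not called (adjusted p = 0.261). For fkbp5 one DIO array of HBx,src, at 8.77, lay just under the DIO+OF arrays (8.82, 9.64 and 8.96), while the other 2 were at 4.10 and 3.97. Without the array that lacked vitellogenin the mean response of fkbp5 was 3.30 (adjusted p = 0.093), and sgk1, klf13 and nr1d2a were not called either. The calls of pck1, nr1d1, per1a, per1b, cry2, ciartb, dbpb, cry3a and cry3b were kept without it. Of the 174 genes moving alike, 82 were in that class without it.

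Others that rose in both lines were slc25a25a (2.69 and 3.47), a mitochondrial ATP-Mg/phosphate carrier, mknk2a (1.68 and 3.21), a kinase of the translation factor eIF4E, and bbox1 (2.67 and 1.89), of carnitine synthesis. The increase in ncoa4, of ferritin turnover, was 1.71 and 2.24, and that in gch1, of tetrahydrobiopterin synthesis, 1.62 and 2.32, though gch1 was not called without the array that lacked vitellogenin (adjusted p = 0.0725). The list of genes the study names had 29 measured members, among them hsd11b2, tdo2b and lpin1a, which the study does not name. Of the 29, 2 moved alike, ddah1 and hnf4a, and none (0) moved oppositely or had a called difference. Over all 20908 genes 174 moved alike, 189 moved oppositely and 271 had a called difference. The counts of 0 therefore say little about these genes. Only 1 of the 29 moved alike without the array that lacked vitellogenin. The gene hsd11b1lb, a relative by name of the study's 11b-hsd1, was outside the list and was picked with its values in view. It moved alike too, with a mean response of 1.53 without the array that lacked vitellogenin (limma adjusted p = 0.017). The listed hsd11b1la, asgrl1 and tdo2a did not move alike. In the fit without that array their mean responses were 0.62, -0.12 and -0.03 (limma adjusted p 0.284, 0.819 and 0.947). For ddah1, which degrades inhibitors of nitric oxide synthase, the signal in HBx,src was 7.16, 7.10 and 7.04 in DIO and 8.64, 8.56 and 8.77 in DIO+OF. In HBx,src,p53-/+ it was 8.07, 8.06 and 8.02 in DIO and 9.46, 9.74 and 10.19 in DIO+OF. The DIO arrays of each line lay close together, the mean response was 1.65 (adjusted p = 0.000158), and the difference was 0.19 ± 0.26.

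For hnf4a, the nuclear receptor that maintains hepatocyte identity, the signal in HBx,src was 7.21, 7.71 and 7.70 in DIO and 8.36, 8.80 and 9.52 in DIO+OF. The HBx,src,p53-/+ arrays gave 8.62, 7.86 and 8.32 in DIO and 9.13, 9.37 and 10.14 in DIO+OF. The responses were 1.35 and 1.28 (adjusted p of the mean = 0.0239, and 0.053 without the array that lacked vitellogenin). The mean response was called for 1 more listed gene that the study names, pparg, with 0.41 and 1.61 (adjusted p = 0.0136). This nuclear receptor of lipid storage was not counted as moving alike, because its change in HBx,src had an unadjusted p of 0.101 in the limma fit. For fasn, the fatty acid synthase, the difference was -3.67 (adjusted p = 0.324), and for srebf1, the SREBP1 factor, the responses were -0.12 and -1.02 (adjusted p of the difference = 0.274).

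**Figure D5:**
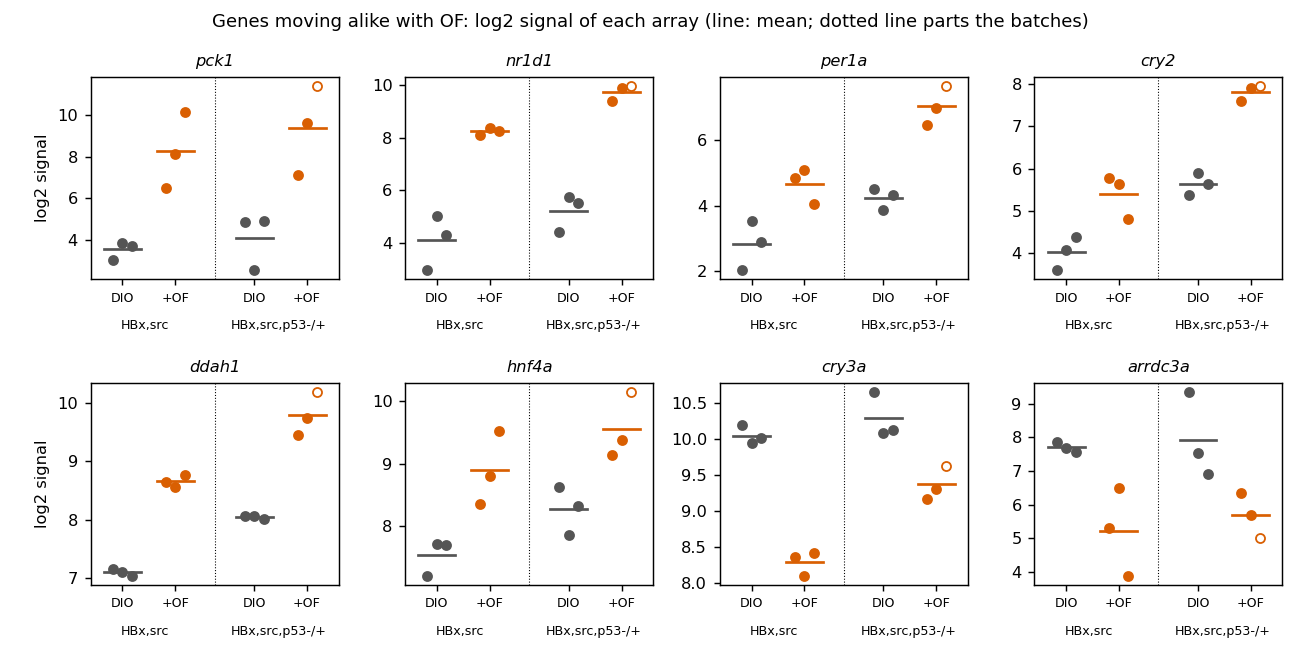
Log2 signal of each array (points) and group means (lines) for 8 genes that moved alike with OF, DIO in grey and DIO+OF in orange, with the DIO+OF array that lacked vitellogenin as an open circle. The dotted line parts the 2 batches, and within each line the DIO+OF arrays lie above the DIO arrays for pck1, nr1d1, per1a, cry2, ddah1 and hnf4a and below them for cry3a and arrdc3a.

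Among the 174 genes moving alike, those that fell in both lines were few (20). Over all 75212 probe sets, most of them without a listed gene, the mean response was called for 718. Of these, 398 were higher and 320 lower with OF, with no demand for a change in each line. The largest mean decrease among those named was that of arrdc3a (-2.47 and -2.25), an arrestin domain protein that acts in receptor traffic. In HBx,src its signal was 7.86, 7.67 and 7.57 in DIO and 5.32, 6.48 and 3.89 in DIO+OF, and in HBx,src,p53-/+ it was 9.34, 7.53 and 6.92 in DIO and 6.34, 5.68 and 5.01 in DIO+OF. Its groups were separate in both lines. The others were atosa (-1.93 and -1.27), g0s2 (-1.66 and -1.53), which inhibits adipose triglyceride lipase in mammals, thumpd3 (-1.39 and -1.45), tomm6 (-1.06 and -1.33), of the import pore of mitochondria, and mical3a (-1.54 and -0.71). The mean responses of arrdc3a, g0s2, thumpd3 and tomm6 were not called without the array that lacked vitellogenin (adjusted p between 0.0614 and 0.0742).

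A change in 1 line only was seen in 33 genes for HBx,src (0.158% of all genes) and 48 for HBx,src,p53-/+ (0.230%), and 69 of these 81 had responses of opposite sign all the same. This class rested on single arrays. It held 7 genes without the array that lacked vitellogenin, 0 without DIO replicate 2 of HBx,src and 401 without DIO+OF replicate 1 of that line, and 0 of the 81 were called in every fit that left out 1 array. In HBx,src, genes of the early secretory pathway were again higher, ergic1 by 2.69, rab1ab, a GTPase of ER to Golgi traffic, by 2.49 and sptssa, a subunit of serine palmitoyltransferase, by 2.40, together with spag1a by 2.38. For rab1ab the arrays were also separate in HBx,src,p53-/+, with a response of -0.89. The microsomal transfer protein gene mttp, which loads lipid onto apolipoprotein B, was higher in HBx,src by 1.75 and had -0.44 in HBx,src,p53-/+.

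Lower in HBx,src were nt5dc2 (-3.43), the stress factor gene nupr1a (-2.78), fnbp1a (-2.51), txnipa (-2.50), which binds thioredoxin and limits glucose uptake, apoa4b.1 (-1.84) and the membrane protease gene mmp14b (-1.93). For nupr1a the signal in HBx,src was 5.06, 5.65 and 5.39 in DIO and 3.87, 2.16 and 1.74 in DIO+OF. Among HBx,src,p53-/+ arrays it was 5.27, 4.70 and 4.59 in DIO and 5.02, 5.04 and 5.58 in DIO+OF, with overlapping groups and a response of 0.36. The difference was 3.14 ± 0.66 (limma adjusted p = 0.0479, and 0.11 without the array that lacked vitellogenin). A further entry, NUPR1, had -1.57 in HBx,src and -1.98 in HBx,src,p53-/+ and was in none of the classes.

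In HBx,src,p53-/+ the lower genes were lss, plxna3 (-3.39), a semaphorin receptor, calr3a (-2.70), a calreticulin of the ER, and klc1b (-1.99), a kinesin light chain. For calr3a the signal in that line was 10.99, 10.94 and 11.29 in DIO and 8.65, 7.91 and 8.57 in DIO+OF. In HBx,src it was 9.77, 9.86 and 10.48 in DIO and 9.07, 10.01 and 9.70 in DIO+OF, with overlap. The higher genes included the photolyase-like cry-dash (2.52), the cationic amino acid transporter gene slc7a1a (2.22), sp7 (2.22), cybc1 (2.15), the growth hormone receptor gene ghra (2.08) and the glucose transporter gene slc2a2 (1.30). For cry-dash the signal in that line was 4.14, 3.81 and 3.88 in DIO and 6.30, 6.25 and 6.84 in DIO+OF, and in HBx,src it was 2.48, 2.68 and 2.19 in DIO and 2.85, 2.90 and 2.29 in DIO+OF. The HBx,src values lay close to the array medians of HBx,src (2.095 to 2.212), and a response near this level may be missed. A change in 1 line here means that the difference was called, not that the other line did not respond.

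The levels in NOR fish place these responses within each line. For hmgcs1 the NOR arrays of HBx,src were at 7.52, 5.03 and 6.79, overlapping the DIO arrays and below the DIO+OF arrays. Those of HBx,src,p53-/+ were at 10.87 and 12.30, above the DIO+OF arrays. For creld2 they were at 7.10, 6.65 and 7.61 in HBx,src, and at 8.40 and 9.06 in HBx,src,p53-/+. For cbln6 they were at 7.92, 10.39 and 7.78 in HBx,src, where DIO+OF was lower, and at 3.46 and 4.02 in HBx,src,p53-/+, where DIO+OF was higher. For nr1d1 they were at 3.23, 3.39 and 3.54 in HBx,src, below DIO+OF, and at 7.28 and 6.60 in HBx,src,p53-/+, between DIO and DIO+OF. For pck1 they were at 3.30, 3.19 and 3.76 in HBx,src, like DIO, and at 9.69 and 6.74 in HBx,src,p53-/+, above the DIO arrays.

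Markers of hepatocytes were bright in all 12 arrays. The median log2 signal of 31 such genes was 9.89 to 10.54 in DIO and 9.45 to 9.87 in DIO+OF of HBx,src, and 9.61 to 9.83 in DIO and 10.14 to 11.32 in DIO+OF of HBx,src,p53-/+. The difference was called for 1 of them, apobb.1, and 10 had a higher response in HBx,src,p53-/+ at an unadjusted p under 0.05. Over all genes 1.30% were called and 10.1% had a higher response. Fewer cells of a type and less RNA per cell cannot be told apart in these livers. Among 23 endothelial markers the difference was called for 1, fli1rs. Of the 23, 11 had a higher response in HBx,src,p53-/+ at an unadjusted p under 0.05, against 10.1% of all genes. Their median was 4.08 to 4.27 in DIO and 5.04 to 5.44 in DIO+OF of that line, and 3.27 to 3.65 and 3.29 to 3.47 in HBx,src, and the log2 of their summed signal was 10.32 to 10.35, 10.63 to 10.75, 9.52 to 9.89 and 9.37 to 9.63.

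Exocrine pancreas markers, whose tissue lies within and beside the zebrafish liver, had a median response of -1.01 in HBx,src and -0.81 in HBx,src,p53-/+, with 0 of 22 called for the difference and none (0) at an unadjusted p under 0.05. Without the array that lacked vitellogenin, their median response in HBx,src,p53-/+ was 0.01. The log2 of their summed signal was 9.58 to 11.91 in DIO and 8.73 to 9.76 in DIO+OF of HBx,src, and 12.69 to 14.33 and 10.78 to 14.79 in HBx,src,p53-/+, so it varied widely between arrays of one group. Among 22 ovary and oocyte markers the difference was called for 1, cth1. Of the 22, 8 had a lower response in HBx,src,p53-/+ at an unadjusted p under 0.05, against 8.10% of all genes. Their summed signal there was 7.10 to 8.89 in DIO and 6.49 to 6.78 in DIO+OF, and 6.47 to 6.64 and 6.37 to 6.46 in HBx,src. For red blood cell, muscle, immune, bile duct and stellate, and intestine markers the difference was called for 0 of 12, 22, 27, 19 and 11. The part of other cell types in the differences between the lines was not tested.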

How the data were processed

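Livers were profiled on ZebGene 1.1 ST arrays. The authors deposited 1 log2 signal per probe set and array, and the log2 scale was read from the values. Transcriptome Analysis Console is named in the submitters' processing notes, and no source used here gives the summarisation or the normalization. Of 75212 probe sets, 30358 had 1 gene symbol, 1015 several and 43839 were not listed in the annotation. They gave 20908 genes, and a gene was represented by its brightest probe set on average over the arrays.

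A model with 6 group means was fitted over 17 arrays with limma 3.58.1 in R 4.3.3 and moderated by eBayes (11 residual and 2.67 prior degrees of freedom). P values were adjusted by the Benjamini-Hochberg method over all probe sets, and the fit was tested on simulated data. Errors are standard errors. Other steps used Python 3.11.15, pandas 2.3.3 and matplotlib 3.10.9.

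Named genes were, without clone or predicted names, up to 8 per direction moving oppositely and up to 8 per direction moving alike with the largest values and no overlap in either line, up to 4 per line and direction with a change in 1 line, up to 4 members of each of 33 lists with the smallest p of the difference, the genes the study names, and vitellogenin and estrogen receptor genes. Further members, among them aacs, tspeara, abcg8 and those of the cholesterol, ER, transport and clock lists beyond 4 per list, sgk1, klf13 and tsc22d3, were chosen after their values were seen. Members and lists were chosen with earlier results of these data known. The promoter search planned was not run.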

Additional observations from a re-analysis of the deposited data

Results flagged for a closer look

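The responses of the 2 lines to OF differed by the limma test of the difference itself (adjusted p under 0.05) for 583 probe sets and for each gene below. Values are the response in HBx,src,p53-/+ minus that in HBx,src on the log2 scale. Of the genes higher with OF in HBx,src and lower in HBx,src,p53-/+, those of cholesterol synthesis were hmgcs1 -7.99, mvda -7.29, fdft1 -6.38, mvk -6.13, ebp -5.98, hsd17b7 -5.65, idi1 -5.06, dhcr7 -4.82, sc5d -4.56, nsdhl -4.02 and scap -2.10. Those of ER protein folding were creld2 -5.10, dnajc25 -4.99, manf -4.94, serp1 -4.82, calr3b -4.74, sdf2l1 -4.40, srp14 -3.85, pdia4 -3.84, sel1l -3.03 and eif2ak3 -3.03. Those of ER to Golgi transport were arcn1a -3.93, surf4l -3.66, copb1 -3.63, sec31a -3.60, sec24c -3.01, sec13 -2.74, copa -2.65 and golgb1 -2.09. The others of this direction were aacs -7.61, pmm2 -6.03, pla2g3 -5.52, gpam -4.72, sec61a1b -4.47, mdm4 -2.26 and atf4a -1.65. Genes that moved the other way were cbln6 7.47, leap2 5.86, tgfbi 5.06, spp2 5.01, RIMS2B 4.44, nrxn1b 4.37, slc5a6b 3.52, BAIAP2L1A 3.47, cyp46a1.3 3.46, tlcd4a 3.45, cyp27a1.2 3.29, pdk4 2.75, abcg2a 2.74, masp1 2.59, dll4 2.47, abcg8 2.20, cyp27a1.4 1.56 and apobb.1 1.02.

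Genes with a change in HBx,src only were nt5dc2 4.54, rab1ab -3.39, sptssa -3.39, nupr1a 3.14, ergic1 -3.07, spag1a -3.02, txnipa 2.87, fnbp1a 2.77, atf6 -2.53, mmp14b 2.34, apoa4b.1 2.24 and mttp -2.19. Genes with a change in HBx,src,p53-/+ only were lss -6.14, plxna3 -3.21, sp7 2.76, slc7a1a 2.57, ghra 2.38, cry-dash 2.29, klc1b -2.26, calr3a -2.25, cybc1 1.75, fli1rs 1.74, slc2a2 1.67, cry1a 1.66 and cth1 -1.11. One difference, that of tspeara 2.25, was between responses of the same sign. Of these genes, 12 were called without the array that lacked vitellogenin.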

How the results depend on the processing

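No called difference or mean response of a named gene changed sign in any alternative run. With the 12 DIO and DIO+OF arrays only, 173 probe sets were called for the difference, 64 genes moved oppositely, 106 alike and 6 changed in 1 line. After scaling the arrays to one interquartile range, the counts were 263, 66, 80 and 47, and with a trended and robust prior 378, 123, 106 and 38. Over probe sets with 1 gene symbol only, so that fewer were tested, they were 895 probe sets, 3872 past the methods' threshold, 354 genes moving oppositely and 324 with a change in 1 line. With the mean over a gene's probe sets 393 moved oppositely and 332 changed in 1 line, and without the dimmest probe sets 123 changed in 1 line. The correlation across genes was -0.14 after quantile normalization. Apart from the change in probe sets tested, the cause was not tested.

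Leaving out single arrays gave 64 to 1645 probe sets called, 6111 to 7723 past the methods' threshold, 20 to 490 genes moving oppositely, 90 to 286 alike, 0 to 401 with a change in 1 line and correlations of -0.16 to -0.03. With the replicate block, 34 probe sets were called, 7 genes moved oppositely, 105 alike and 0 changed in 1 line. Deviations of arrays with the same number correlated between -0.08 and 0.05, so the numbers give no pairing. The median difference kept its sign in all alternatives for 24 of 33 lists. Cholesterol synthesis ranged from -4.97 to -3.78. With the spread of each line estimated alone (limma), 178 of the 189 genes moving oppositely kept an unadjusted p under 0.05 in both lines. So did 163 of the 174 moving alike. This check was chosen after seeing the data. The difference and the mean were not tested again, so it could only lower the counts. With 3 arrays per group, precision is limited by their number.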
